A study of Mus musculus with 7 samples.

Results

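The CXC chemokines that attract neutrophils, Cxcl1, Cxcl2, Cxcl3 and Cxcl5, and those stored in platelets, Ppbp and Pf4, were examined in macrophages sorted from injured mouse nerve. The 6 genes were chosen by symbol, and all 6 were found among the 23361 genes of the deposited values. In wild-type mice of the BALB/cJ inbred strain, the left sciatic nerve was cut and at once repaired within a conduit, and the tissue that grew between the stumps, the regenerative bridge, was harvested 5, 14 or 28 days later. This tissue was digested with collagenase and hyaluronidase. Macrophages were then sorted by flow cytometry as Lin-F4/80+CD14+CD11b+CD16/32+ cells. Antibodies that included those to Ly6G, CD31, Ter119, Thy1.2, CD3e and Siglec F had marked the lineages to be removed. PolyA+ RNASeq libraries were made from 25 ng of total RNA and sequenced single-end, and those used here were 3 at day 5 and 2 at each of days 14 and 28. All 3 groups had the same strain, injury and repair, and differed in the day of harvest. There was no group without injury. The age and sex of these mice, and whether a library, described by the authors as a biological replicate, stems from 1 mouse or a pool, are not given in the sources used here.

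Chemokines are small secreted proteins that guide leukocytes along concentration gradients, and the CXC family is named for a pair of cysteines parted by 1 residue. Members with the residues Glu-Leu-Arg before these cysteines act on the receptor Cxcr2 and draw neutrophils into injured tissue, where macrophages are among their sources. Ppbp and Pf4 are best known as products of megakaryocytes and platelets, and Pf4 transcripts are also known from macrophages.

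The libraries held 26167372, 21509710 and 21889611 fragments assigned to genes in day 5 replicates 1, 2 and 3. Day 14 replicates 1 and 2 held 18027190 and 20822892, and day 28 replicates 1 and 2 held 35247116 and 18101976. Levels are given as FPKM, the fragments of a gene adjusted for transcript length and library size. The days were compared pairwise with edgeR's quasi-likelihood test on the fragments of all 7 libraries, and a gene was called at a Benjamini-Hochberg adjusted p under 0.05 over the 12858 genes tested. All 6 chemokine genes passed the filter on low counts. The 3 comparisons share libraries, since each day enters 2 of them. The p-values measure the spread between these libraries, with 2 or 3 a day. Beyond the noise of counting, which gives a chi-square near 1 for each degree of freedom, there was further spread within a day: pairs of day 5 libraries gave 16.4 to 23, the day 14 pair 65.9 and the day 28 pair 49.9.

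The macrophage label was first checked against marker genes. All 5 genes of the sort markers were expressed, led by Cd14, with 3003, 2635 and 2659 FPKM at day 5, 1837 and 1431 at day 14, and 1433 and 1799 at day 28. Their summed level was 4532, 4039 and 4078 FPKM at day 5, 3152 and 2656 at day 14, and 2541 and 2844 at day 28. Cd14 was called lower at day 14 than at day 5 (log2 fold change -0.75, SE 0.16, edgeR adjusted p = 0.0357) and at day 28 than at day 5 (-0.76, SE 0.16, edgeR adjusted p = 0.0145). The first of these calls was lost without any of the day 5 libraries or without day 14 replicate 2, and the second without day 5 replicate 1 or day 28 replicate 1, with edgeR adjusted p of up to 0.112 and 0.111. Emr1, which encodes F4/80, was called lower at day 28 than at day 5 (log2 fold change -1.01, SE 0.17, edgeR adjusted p = 0.00650, and 0.0667 without day 28 replicate 1). Of 8 further macrophage genes, Emr1 again among them, all were expressed, with a summed level of 13270.01 to 20560.2 FPKM per library. Lyz2 was the most abundant, at 10675 to 18377 FPKM. None of the 8 was called between days 5 and 14, and 3 (Emr1, Fcgr1, Aif1) were lower at day 28 than at day 5, Aif1 not without day 28 replicate 1 (edgeR adjusted p = 0.0559). Of all genes tested, 4.78% were called in either direction between days 5 and 14, and 7.51% were called lower at day 28 than at day 5. In bulk samples such as these, fewer cells of a type and less RNA per cell cannot be told apart.

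The 6 genes lie in 1 cluster on chromosome 5, all on the plus strand (GENCODE M21 on GRCm38, the assembly also called mm10). Cxcl5 comes first (90759360 to 90761624), followed by Ppbp (90768518 to 90770063) and Pf4 (90772435 to 90773383). Cxcl3 (90786103 to 90789600) starts 26.7 kb from the start of Cxcl5. Cxcl1 (90891241 to 90893115) and Cxcl2 (90903871 to 90905938) start 131.9 and 144.5 kb from it. Over the 146.6 kb from the first gene to the end of the last, the annotation has 11 genes, 7 of them protein-coding. The 1 protein-coding gene of the stretch outside the group, Cxcl15, lies between Cxcl3 and Cxcl1 and is listed in the deposited values under the symbol Il8, at 0 in every library.

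The stretches before the gene starts are shown because all 6 members were lower in each day 14 library than in each day 5 library. The share of all genes with this pattern is not given here. Of the 6, 5 were called lower at day 14, against 1.94% of all genes tested. Of the 6 members, 5 had an entry in the RefSeq promoter sequences (GRCm38.p6), and the 250 bases before the RefSeq start are given 5′ to 3′ on the plus strand, with the bases that matched a motif in capitals. The windows are chr5:90890995-90891244 for Cxcl1, chr5:90903649-90903898 for Cxcl2, chr5:90785851-90786100 for Cxcl3, chr5:90768268-90768517 for Ppbp and chr5:90772185-90772434 for Pf4. Those of Cxcl1 and Cxcl2 reach past the GENCODE starts, 90891241 and 90903871. The end of each thus lies within the GENCODE gene, and positions before the start depend on the annotation used.
Cxcl1: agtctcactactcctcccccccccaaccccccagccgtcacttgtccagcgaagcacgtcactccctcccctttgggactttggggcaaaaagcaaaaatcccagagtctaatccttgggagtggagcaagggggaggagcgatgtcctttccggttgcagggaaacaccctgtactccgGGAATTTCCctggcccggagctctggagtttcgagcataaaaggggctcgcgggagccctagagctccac
Cxcl2: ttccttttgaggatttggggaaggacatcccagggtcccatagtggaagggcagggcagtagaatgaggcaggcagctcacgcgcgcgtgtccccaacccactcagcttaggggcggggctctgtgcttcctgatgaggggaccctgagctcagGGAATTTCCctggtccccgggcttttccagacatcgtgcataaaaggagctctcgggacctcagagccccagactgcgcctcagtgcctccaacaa
Cxcl3: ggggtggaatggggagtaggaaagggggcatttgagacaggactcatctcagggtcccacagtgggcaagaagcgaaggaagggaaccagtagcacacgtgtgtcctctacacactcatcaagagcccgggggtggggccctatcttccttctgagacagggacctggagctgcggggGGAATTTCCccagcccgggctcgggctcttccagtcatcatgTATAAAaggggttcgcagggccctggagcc
Ppbp: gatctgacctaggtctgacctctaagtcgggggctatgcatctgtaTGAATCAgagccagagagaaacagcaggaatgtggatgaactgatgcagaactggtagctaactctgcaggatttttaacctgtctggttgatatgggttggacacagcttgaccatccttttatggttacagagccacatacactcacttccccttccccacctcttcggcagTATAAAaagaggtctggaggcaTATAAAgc
Pf4: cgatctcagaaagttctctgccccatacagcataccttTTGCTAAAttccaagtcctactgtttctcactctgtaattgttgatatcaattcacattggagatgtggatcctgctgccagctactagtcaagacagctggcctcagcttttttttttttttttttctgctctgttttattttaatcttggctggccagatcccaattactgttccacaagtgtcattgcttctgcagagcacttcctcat
On both strands 4 motifs were searched: GGANNTTCC, a form of the NF-kB site, TTGCNNAA for C/EBP factors, TGANTCA for AP-1, and the TATA box TATAAA. Other forms of these sites were not searched. The letters GGAATTTCC stood at bases 70 to 62 before the start of Cxcl1, 96 to 88 before that of Cxcl2 and 72 to 64 before that of Cxcl3. They fit GGANNTTCC on either strand at the same bases. Neither Ppbp nor Pf4 had this motif in the window, and it occurred in 3.59% of the same windows of all 32851 promoters. In the Ppbp window TATAAA was found at bases 30 to 25 and 8 to 3 before the start, and in that of Cxcl3 at bases 30 to 25, against 12.4% of all promoters. TGAATCA, which fits TGANTCA (6.75% of promoters), stood at bases 204 to 198 in the Ppbp window, and TTGCTAAA, which fits TTGCNNAA (9.56%), at bases 212 to 205 in that of Pf4. No matches overlapped between motifs. A match is a description of the letters, and binding was not measured.

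Cxcl2, Cxcl1 and Pf4 were among the most abundant transcripts of the sorted cells at day 5, in contrast to Ppbp and Cxcl5. What part the digestion and sorting had in these levels was not tested. By mean FPKM at day 5 the order was Cxcl2 (3831 ± 635, SD, n = 3 libraries), Cxcl1 (2518 ± 451), Pf4 (1816 ± 319), Cxcl3 (468 ± 42.7), Ppbp (36.5 ± 15.5) and Cxcl5 (26.4 ± 4.57). Among all genes ranked by mean FPKM at day 5 these were places 10, 18, 25, 187, 2310 and 3035. The order by FPKM was the same at day 14, from Cxcl2 (2619.5 ± 461, n = 2) and Cxcl1 (1493 ± 109) to Pf4 (461 ± 81.7), Cxcl3 (177 ± 60.4), Ppbp (4.75 ± 2.89) and Cxcl5 (3.82 ± 1.42). At both days only the libraries of the neighbours Ppbp and Cxcl5 overlapped in FPKM. At day 28 Cxcl2 (3449 ± 141, n = 2) and Cxcl1 (2039.7 ± 7.99) came before Cxcl3 (341 ± 87.8) and Pf4 (295 ± 53.3), whose libraries overlapped in FPKM, and Ppbp (8.61 ± 1.73) and Cxcl5 (3.24 ± 0.646), whose libraries did not. Cxcl2 was in place 7 of all genes by mean FPKM at day 28, and Pf4 in place 278.

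**Figure D1:**
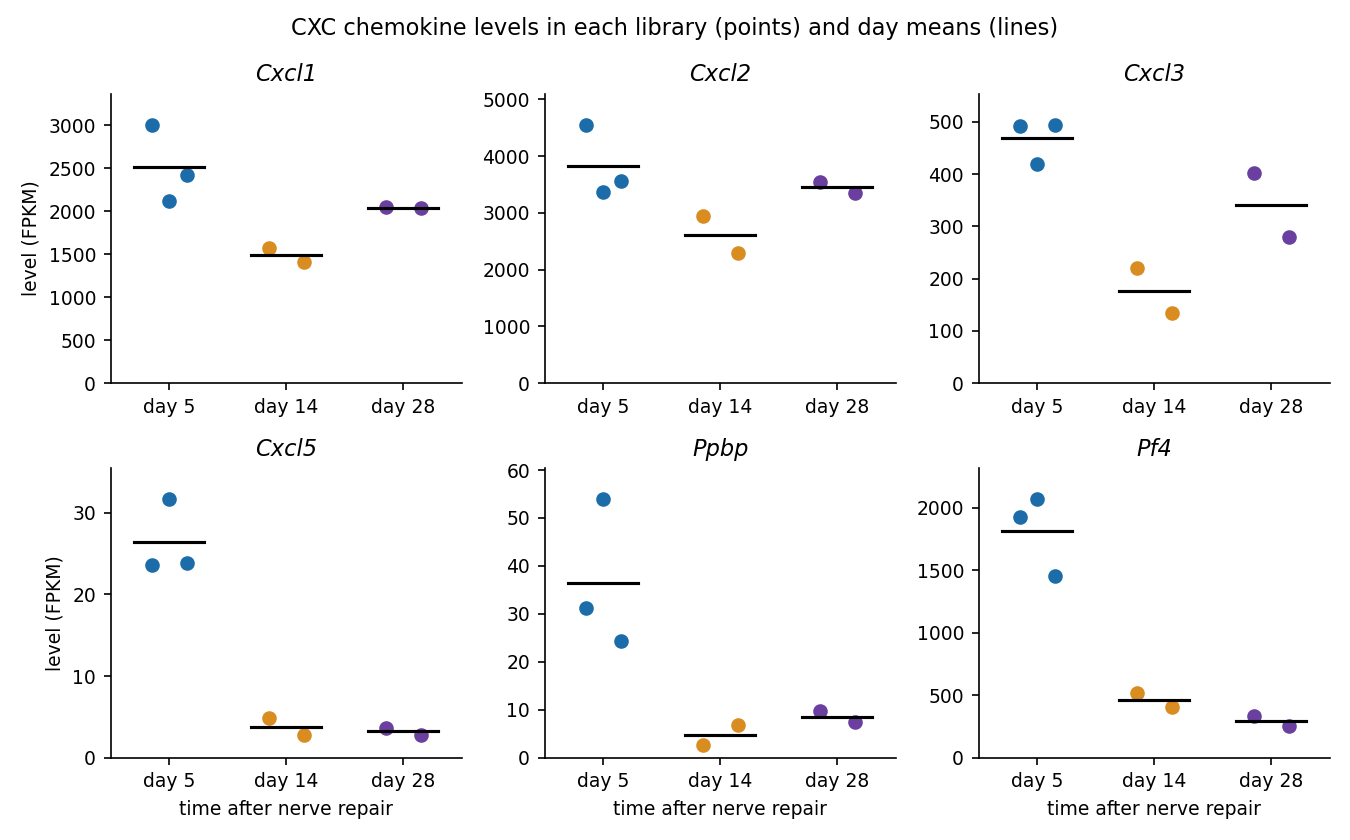
Level of each of the 6 chemokine genes (FPKM, vertical axis from 0) in the libraries of days 5, 14 and 28 after nerve repair (horizontal axis). Each point is 1 library and each line the mean of a day. Cxcl5, Ppbp and Pf4 are below their day 5 libraries at both later days, at most 4.82, 9.83 and 519 FPKM, and the Cxcl1, Cxcl2 and Cxcl3 points of day 28 lie above those of day 14.

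Cxcl1, a ligand of Cxcr2 made by many cells within hours of injury, had 3009, 2422 and 2122 FPKM in replicates 1, 2 and 3 of day 5, at 1570.3 and 1416 in the day 14 libraries, and at 2045 and 2034 in those of day 28. Day 5 replicate 1 was the highest library, and both day 14 libraries were below all others. These values rest on 21263 to 59144 fragments per library. From day 5 to day 14 Cxcl1 fell by 0.75 in log2 units (SE 0.16, edgeR adjusted p = 0.0366), to 59.3% of the day 5 mean FPKM. This call was lost in 6 of the 7 fits that left out 1 library. The edgeR adjusted p was then 0.0965, 0.104 and 0.0676 without day 5 replicates 1, 2 and 3, 0.0957 without day 14 replicate 2, and 0.0569 and 0.0584 without day 28 replicates 1 and 2. Without day 14 replicate 1 it was 0.0152. Over the alternatives that left out no library of the days compared it ran from 0.000158 to 0.0809. With limma on log2(FPKM + 1) or log2(FPKM + 0.1) it was 0.0633 or 0.0651, and 0.0610 in edgeR on the 2 days alone. Between days 14 and 28 the difference was 0.46 on the log2 scale (SE 0.17, edgeR adjusted p = 0.335), and both day 28 libraries were above both of day 14. Against day 5 the day 28 libraries were also all lower, with a log2 fold change of -0.29 (SE 0.16, edgeR adjusted p = 0.239). This fold change was -0.14 without day 5 replicate 1.

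For Cxcl2, a neutrophil attractant that macrophages release when activated, the level was 4557, 3561 and 3377 FPKM in the day 5 libraries, 2945 and 2294 in those of day 14, and 3548 and 3349 in those of day 28. Each day 14 library was below each day 5 library, whereas days 5 and 28 overlapped. No comparison of Cxcl2 was called. The log2 fold change was -0.54 at day 14 against day 5 (SE 0.17, edgeR adjusted p = 0.0938), 0.40 at day 28 against day 14 (SE 0.18, edgeR adjusted p = 0.418), and -0.14 at day 28 against day 5 (SE 0.17, edgeR adjusted p = 0.613). The first of these was called with DESeq2 (adjusted p = 0.0169), without a filter on low counts (edgeR adjusted p = 0.0260) and without day 14 replicate 1 (edgeR adjusted p = 0.0219). Over the alternatives that left out no library of the days compared it ran from 0.0169 to 0.142. Without day 5 replicate 1 the difference between days 5 and 28 was 0.01 on the log2 scale, of opposite sign. Cxcl2 was the most abundant of the 6 genes in every library, with 41.8% to 56.5% of their summed FPKM.

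Cxcl3, a close paralog of Cxcl1 and Cxcl2 that also acts on Cxcr2, was at 491, 495 and 419 FPKM at day 5, at 220.1 and 135 at day 14, and at 403 and 279 at day 28. The day 14 libraries were below all others, and both day 28 libraries were below all of day 5. From day 5 to day 14 Cxcl3 fell by 1.39 in log2 units (SE 0.23, edgeR adjusted p = 0.0184), to 37.9% of the day 5 mean. Without day 5 replicates 1, 2 or 3 the edgeR adjusted p was 0.0648, 0.0646 or 0.0593. At day 28 the mean was 341 FPKM, 72.8% of the day 5 mean, and the log2 fold change against day 5 was -0.44 (SE 0.22, edgeR adjusted p = 0.204). This fold change was -0.74 without day 28 replicate 1 and -0.21 without day 28 replicate 2. Between days 14 and 28 the difference was 0.95 (SE 0.24, edgeR adjusted p = 0.163). That step was called with DESeq2 (adjusted p = 0.00488), without the filter on low counts (edgeR adjusted p = 0.00442) and without day 14 replicate 1 (edgeR adjusted p = 0.0410), and over the alternatives that left out no library of the days compared it ran from 0.00442 to 0.415. Reads of Cxcl1, Cxcl2 and Cxcl3 can match more than 1 of these paralogs, and how such reads were shared is not given in the sources used here, so their levels are uncertain to that extent.

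Cxcl5, a Cxcr2 ligand best known from epithelial cells, had 23.7, 23.9 and 31.7 FPKM at day 5, 4.82 and 2.82 at day 14, and 3.70 and 2.79 at day 28. All 4 libraries of the later days were far below those of day 5, and days 14 and 28 overlapped. These levels rest on 714 to 1009 fragments per library at day 5 and 78 to 208 later. Its level fell by 2.79 in log2 units from day 5 to day 14 (SE 0.26, edgeR adjusted p = 0.00482), to 14.5% of the day 5 mean FPKM. From day 5 to day 28 it fell by 2.99 (SE 0.26, edgeR adjusted p = 0.000546), to 12.3%. Between days 14 and 28 the log2 fold change was -0.20 (SE 0.28, edgeR adjusted p = 0.811), and 0.22 without day 14 replicate 1. Both calls of Cxcl5 were also made with each library left out, with an edgeR adjusted p of at most 0.0310 and 0.0127.

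Ppbp encodes pro-platelet basic protein, which proteases trim to the neutrophil attractant CXCL7. Its level was 31.2, 24.4 and 53.9 FPKM in replicates 1, 2 and 3 of day 5, at 2.70 and 6.79 at day 14, and at 9.83 and 7.39 at day 28. Day 5 replicate 3 stood above the other day 5 libraries, and no library of days 14 and 28 reached the lowest of day 5. As few as 43 fragments in day 14 replicate 1 lie behind these values, against 441 to 1039 at day 5. The log2 level of Ppbp fell by 2.91 from day 5 to day 14 (SE 0.44, edgeR adjusted p = 0.0157), to 13% of the day 5 mean. Without day 14 replicate 2 it fell by 3.75, and the call was made with any 1 library left out (edgeR adjusted p of at most 0.0493). Between days 5 and 28 it fell by 2.06 (SE 0.41, edgeR adjusted p = 0.0119), to 23.6%, a call that was lost without day 28 replicate 1 or 2 (edgeR adjusted p = 0.0872 and 0.0851). Both day 28 libraries were above both of day 14, with a log2 fold change of 0.85 (SE 0.46, edgeR adjusted p = 0.489). This value was 0.36 without day 14 replicate 1 and 1.69 without day 14 replicate 2.

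Pf4, or platelet factor 4, binds heparin and related sugar chains and lacks the Glu-Leu-Arg residues of the neutrophil attractants. Its level was 1924, 1456 and 2067 FPKM at day 5, 519 and 403 at day 14, and 332 and 257 at day 28. The libraries of the 3 days did not overlap. Between 1913 and 18132 fragments per library were assigned to Pf4. In log2 units Pf4 fell by 1.97 from day 5 to day 14 (SE 0.20, edgeR adjusted p = 0.00554), to 25.4% of the day 5 mean, and by 2.61 between days 5 and 28 (SE 0.21, edgeR adjusted p = 0.000541), to 16.2%. Each call was also made with any 1 library left out, with an edgeR adjusted p of at most 0.0318 and 0.00828. From day 14 to day 28 the log2 fold change of Pf4 was -0.64 (SE 0.21, edgeR adjusted p = 0.256).

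Across the group, 5 of the 6 chemokine genes were called between days 5 and 14, all lower at day 14, against 4.78% of all genes tested called in either direction and 1.94% called lower. With the replicate number as a block, 2 of the 6 were called (Cxcl5, Pf4), and 6 genes in all. Without any of the day 5 libraries 3 of the 6 were called, and 6 without day 14 replicate 1. The all-gene count of 614 was 63, 106 and 52 without day 5 replicates 1, 2 and 3, 1728 and 285 without day 14 replicates 1 and 2, and 359 and 322 without day 28 replicates 1 and 2. Between days 5 and 28, 3 of the 6 (Cxcl5, Ppbp, Pf4) were called, all lower at day 28, against 15.2% of all genes called in either direction and 7.51% called lower. Here 2 of the 6 were called without either day 28 library. The all-gene count of 1960 was 820, 916 and 967 without day 5 replicates 1, 2 and 3, and 452 and 1012 without day 28 replicates 1 and 2. With the block, the counts between days 5 and 28 were 2 of the 6 (Cxcl5, Pf4) and 735 of all genes. No chemokine gene was called between days 14 and 28 with edgeR, against 0.0622% of all genes, or 8. At an unadjusted p under 0.05 there were 3 of 6 (Cxcl1, Cxcl3, Pf4), and 1570 of all 12858 genes tested. DESeq2 and edgeR without the filter each called 1, Cxcl3, as did edgeR without day 14 replicate 1, and limma called 0. The all-gene count of 8 was 0 without any of the day 5 libraries, 33 and 629 without day 14 replicates 1 and 2, and 1 and 36 without day 28 replicates 1 and 2. The median log2 fold change of the 6 was -1.68, 0.43 and -1.25 at day 14 against day 5, day 28 against day 14 and day 28 against day 5, and that of all genes tested 0.03, 0.01 and 0.03. Whether the genes differed from each other in their change was not tested.

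**Figure D2:**
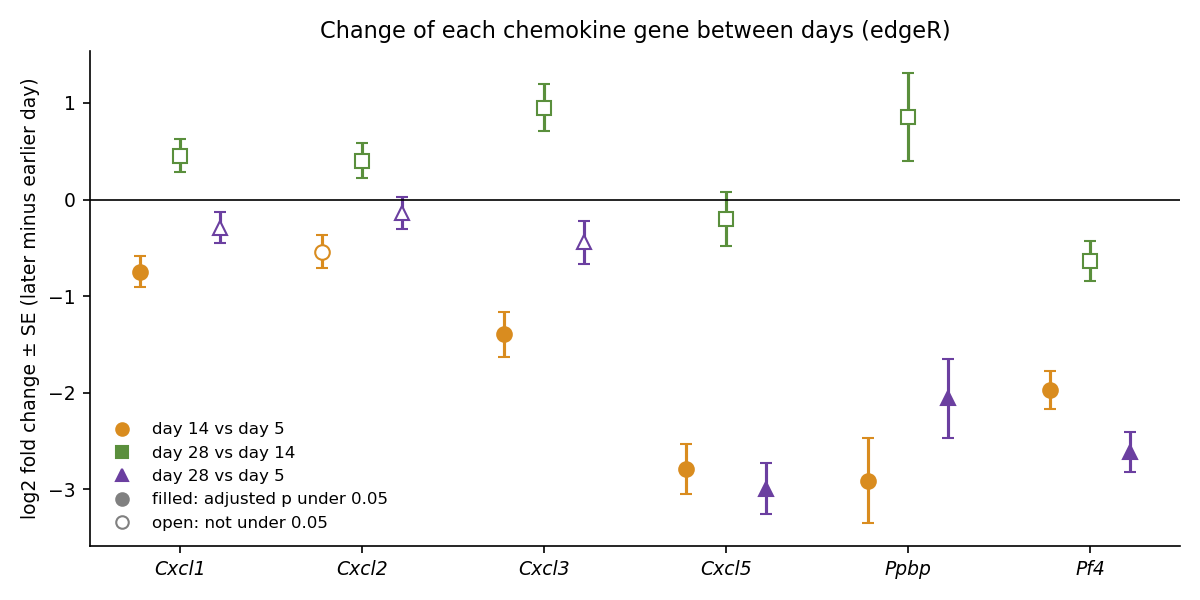
Log2 fold change of each chemokine gene (vertical axis) in the 3 comparisons of days, from edgeR, with bars of 1 SE. Filled symbols have an adjusted p under 0.05 and open ones do not. Values for day 28 against day 5 are near 0 for Cxcl2 (-0.14) and lowest for Cxcl5 (-2.99).

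Added up, the 6 genes reached 10035, 7982 and 8070.4 FPKM in the day 5 libraries, 5262 and 4257 in those of day 14, and 6342 and 5929 in those of day 28. This was 1.69%, 1.43% and 1.49% of the summed FPKM of all genes at day 5, 0.946% and 0.820% at day 14, and 1.23% and 1.16% at day 28. The day 28 libraries lay between those of days 14 and 5. The makeup of the sum differed between days. Pf4 took 19.2%, 18.2% and 25.6% of the 6-gene FPKM at day 5, 9.86% and 9.47% at day 14, and 5.24% and 4.33% at day 28. Cxcl2 took 45.4%, 44.6% and 41.8% at day 5, 56.0% and 53.9% at day 14, and 55.9% and 56.5% at day 28.

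The levels left after day 5 were lowest for the 3 genes at the start of the cluster and highest for those at its end. The mean FPKM at day 14 was 14.5%, 13% and 25.4% of the day 5 mean for Cxcl5, Ppbp and Pf4, the first 3 genes, and 37.9% for Cxcl3, the next. For Cxcl1 and Cxcl2 at the far end it was 59.3% and 68.4%. At day 28 the same shares were 12.3%, 23.6% and 16.2% for the first 3 genes and 72.8%, 81.0% and 90.0% for Cxcl3, Cxcl1 and Cxcl2. With 6 genes, position was not tested.

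**Figure D3:**
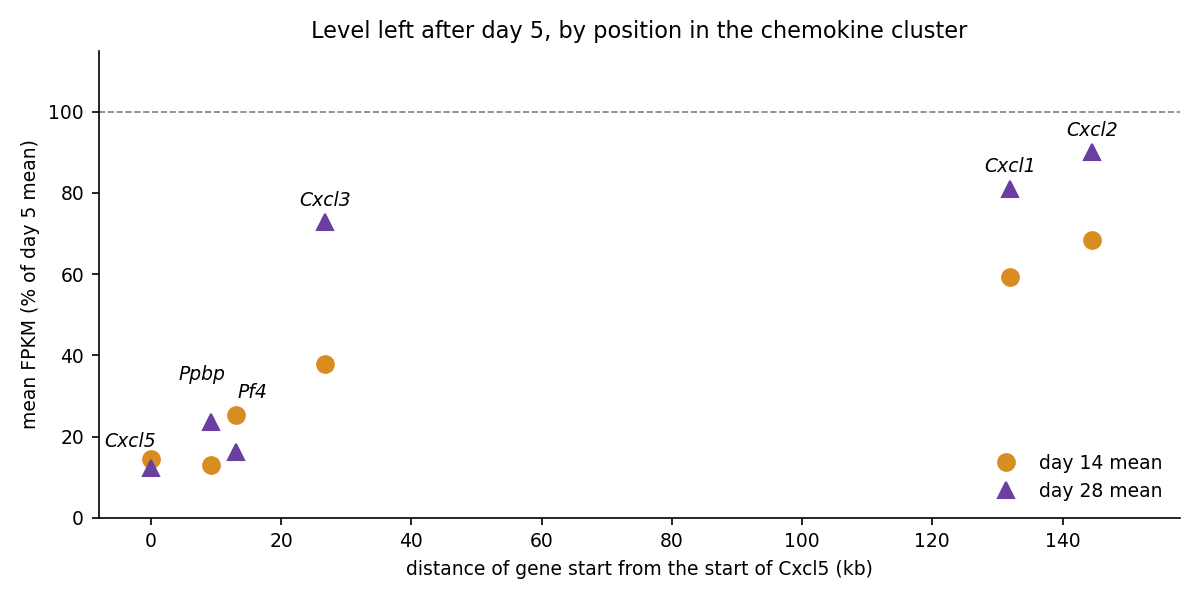
Mean FPKM at day 14 (circles) and day 28 (triangles) as a percentage of the day 5 mean (vertical axis) for each chemokine gene, against the distance of its start from the start of Cxcl5 (kb, horizontal axis). The dashed line is 100%. The first 3 genes lie at 12.3% to 25.4%, and Cxcl2, 144.5 kb away, at 68.4% and 90.0%.

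Profiles over the 7 libraries were compared by the root-mean-square difference of log2(FPKM + 1) after each gene was centred on its own mean. Cxcl1 and Cxcl2 differed by 0.11, Cxcl1 and Cxcl3 by 0.37, and Cxcl2 and Cxcl3 by 0.41. Cxcl5 and Pf4 differed by 0.27, Cxcl5 and Ppbp by 0.63, and Ppbp and Pf4 by 0.70. Any of Cxcl1, Cxcl2 and Cxcl3 differed from any of Cxcl5, Ppbp and Pf4 by 0.91 to 1.17. Among 7612 other genes with a mean of at least 5 FPKM, those nearest to Cxcl1 were Fam111a (0.0956), Cxcl2 (0.11) and Wdr92 (0.12). Nearest to Cxcl2 were Pwwp2a (0.0682), Eif5 (0.0755) and Lrrfip2 (0.0971), and nearest to Cxcl3 were Flrt3 (0.19), Ddit4 (0.27) and AI504432 (0.28). For Cxcl5 they were Pf4 (0.27), Mmp27 (0.39) and Gja1 (0.42), and for Pf4 they were Cxcl5 (0.27), Cd38 (0.28) and Gja1 (0.31). Ppbp had no close neighbour, and Cxcl5 (0.63) and Egln3 (0.67) were among the nearest.

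The chemokine receptors read out here were low. Not all of them are established receptors of the 6 members, and binding was not measured. Cxcr2, the receptor of the Glu-Leu-Arg members, was at 2.38, 4.43 and 3.55 FPKM at day 5, 5.31 and 6.50 at day 14, and 2.10 and 1.70 at day 28. Its groups did not overlap, and none of its 3 comparisons was called (edgeR adjusted p = 0.0995, 0.0763 and 0.0648 for day 14 against day 5, day 28 against day 14 and day 28 against day 5). Cxcr1 was at most 0.316 FPKM, and Cxcr3, to which Pf4 can bind, was at 0.812 to 3.10 FPKM. Of the atypical receptors, which take up chemokines without signalling in the usual way, Ackr3, listed as Cxcr7, was at 9.29, 10.5 and 13.8 FPKM at day 5, 2.68 and 5.86 at day 14, and 2.73 and 2.80 at day 28. Ackr1, Ackr2 and Ackr4, listed as Darc, Ccbp2 and Ccrl1, were at most 1.0, 0.214 and 0.0478 FPKM. Srgn, the core protein of the granule proteoglycan that holds Pf4, was the most abundant binding partner at 639 to 895 FPKM. Of 10 receptors and binding partners 6 were tested. The share of all genes tested that was called in either direction was 4.78% between days 5 and 14 and 15.2% between days 5 and 28. Cxcr7 was lower at day 14 than at day 5 (1 of 6, log2 fold change -1.35, SE 0.32, edgeR adjusted p = 0.0451), a call lost without any day 5 or day 28 library (edgeR adjusted p of up to 0.130). Its log2 fold change was -2.06 without day 14 replicate 2 and -0.89 without day 14 replicate 1. At day 28 against day 5 Cxcr7 and Sdc4 were lower and Sdc1 was higher, with edgeR adjusted p of 0.00555, 0.0253 and 0.00867, and of up to 0.0703, 0.188 and 0.0876 without day 28 replicate 1. The call of Sdc4 was also lost without day 28 replicate 2 or day 5 replicate 1 or 2. The median log2 fold change of the 6 was 0.15, -0.58 and -0.91 in the 3 comparisons in the same order.

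Cytokines, receptors and adaptors of pathways that act on Cxcl1, Cxcl2 and Cxcl3 were read out as a list of 20 genes, 17 of them tested, which also holds the inhibitors Il1rn and Il1r2 and the growth factor Csf3. Il1b was the most abundant, at 1104, 1205 and 1225 FPKM at day 5, 735 and 618 at day 14, and 783 and 728 at day 28. Its day 5 libraries were above all others. Of the 17, 4 were called lower at day 14 than at day 5 (Il1a, Il1b, Myd88, Il6) and none was called higher, against 1.94% of all genes tested called lower. Il1b fell by 0.79 on the log2 scale (SE 0.13, edgeR adjusted p = 0.0184, and up to 0.0731 without a day 5 library). The calls of Il1a, Myd88 and Il6 were each lost in 6 of the 7 fits without 1 library, all but that without day 14 replicate 1, with edgeR adjusted p of up to 0.0958, 0.164 and 0.142. At day 28 against day 5, 7 of 17 were called lower (Il1a, Il1b, Tnfrsf1a, Tlr2, Tlr4, Myd88, Csf3) and none was called higher, against 7.51% of all genes tested called lower. Csf3, the growth factor of neutrophils, was at 86.1, 86.0 and 44.7 FPKM at day 5, 24.1 and 4.79 at day 14, and 5.74 and 12.5 at day 28. From day 5 to day 28 Csf3 fell by 3.01 in log2 units (SE 0.62, edgeR adjusted p = 0.0145, and 0.140 without day 28 replicate 1). Without day 28 replicate 2 its log2 fold change was -3.64, and it was not called either. Of these 7 calls, that of Myd88 was made with any 1 library left out (edgeR adjusted p of at most 0.0248), and those of the other 6 were not, with the highest edgeR adjusted p for Csf3 and the lowest of these maxima, 0.0679, for Il1b. None of the 17 was called between days 14 and 28. Il17a was at 0 in every library. Over the 17 the median log2 fold change was -0.41, -0.21 and -0.44.

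Among 22 regulators of transcription and mRNA decay that act on chemokine genes, all were tested, and Zfp36, whose product promotes the decay of such mRNAs, was at 792 to 1390 FPKM, with Nfkbia and Cebpb above it in all 3 day 5 libraries. Between days 5 and 14 Jun, Fos and Egr1 rose and Nfkbie, an inhibitor of NF-kB, fell. In this interval 5 of the 6 chemokine genes were called lower, and a link between these changes was not tested. Nor was the part that digestion and sorting had in them. Jun was at 112, 92.4 and 94.5 FPKM at day 5, 247 and 315 at day 14, and 130.4 and 194 at day 28. It rose by 1.51 on the log2 scale (SE 0.19, edgeR adjusted p = 0.00926, at most 0.0436 with 1 library left out). The calls of Fos, Egr1 and Nfkbie had edgeR adjusted p of up to 0.0789, 0.122 and 0.139 with 1 library left out, including each day 5 library. With the replicate number as a block, the call of Jun between days 5 and 14 was lost (edgeR adjusted p = 0.0698). At day 28 against day 5, Zfp36l2, Jun and Fos were higher and 5 genes of the NF-kB family or its partners (Nfkb2, Rela, Relb, Nfkbie, Bcl3) were lower. Of all genes tested, 4.78% were called in either direction between days 5 and 14 and 15.2% between days 5 and 28. Rela, a subunit of NF-kB, was at 91.2, 79.4 and 77.4 FPKM at day 5 and 38.5 and 53.7 at day 28 (log2 fold change -0.83, SE 0.18, edgeR adjusted p = 0.0156), a call lost without day 5 replicate 1 or day 28 replicate 1 (edgeR adjusted p of up to 0.119). Each of the other 7 calls was lost without day 28 replicate 1 or 2, with edgeR adjusted p from 0.0710 for Nfkbie to 0.202 for Jun. None of the 22 was called between days 14 and 28, and the median log2 fold change was -0.19, -0.36 and -0.36.

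As Pf4 and Ppbp are known from platelets, 20 other genes of platelets and megakaryocytes were read out beside them, with Pf4 at 1456 to 2067 FPKM and Ppbp at 24.4 to 53.9 FPKM at day 5. The summed level of the 20 was 24.3, 25.8 and 25.2 FPKM at day 5, 32.9 and 38.3 at day 14, and 46.5 and 42.4 at day 28. P2ry12, which macrophages also express, was at 9.19 to 12.04 FPKM and led at day 5 and in day 14 replicate 1, and Gng11 led in the other libraries. Defining genes were near 0. Itga2b, Gp1ba, Gp5 and Gp9 were at most 0.393, 0.338, 0.288 and 1.02 FPKM. Of the 12 tested, 1 rose between days 5 and 14 (Gng11), none was called between days 14 and 28, and 5 rose between days 5 and 28 (Treml1, Vwf, Selp, Rgs18, Gng11). Of all 12858 genes tested, 365 were called higher at day 14 and 995 at day 28 than at day 5. None of the 12 was called lower in any comparison. With 1 library left out, the edgeR adjusted p of these calls ran up to 0.258 for Gng11 between days 5 and 14 without day 14 replicate 2, and up to 0.0926, 0.0793, 0.0679, 0.148 and 0.347 for Selp, Rgs18, Gng11, Vwf and Treml1 between days 5 and 28 without day 28 replicate 1. Treml1 was also not called without any other library of these days, Vwf without day 28 replicate 2 or day 5 replicate 1 or 3, and Gng11 between days 5 and 14 without any day 5 or day 28 library. Over the 12 tested genes the median log2 fold change was 0.75, 0.42 and 0.92.

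**Figure D4:**
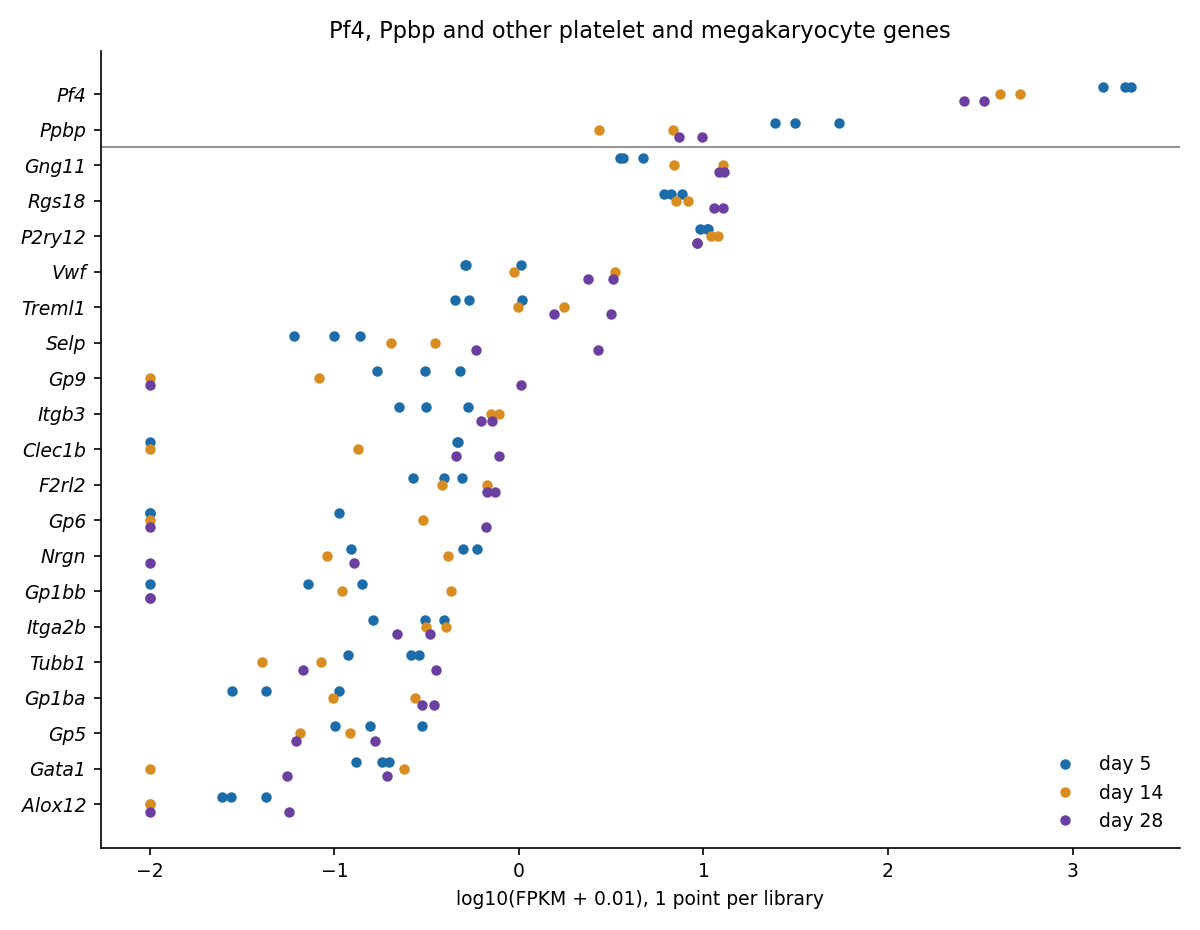
Level of Pf4, Ppbp and other genes of platelets and megakaryocytes in each library, as log10(FPKM + 0.01) (horizontal axis), with 1 point per library coloured by day. Genes below the line are ordered by their highest level. Pf4 and Ppbp have their highest libraries at day 5, and Gng11, Rgs18 and Vwf have theirs at the later days.

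Neutrophils, the cells that these chemokines attract, also had to be looked for in the sort, which removed Ly6G+ cells. Of 16 marker genes 15 were in the deposited values and 11 were tested. Their summed level was 399.9, 398 and 432 FPKM at day 5, 680.3 and 673 at day 14, and 324 and 179 at day 28. S100a9, which monocytes express too, was the most abundant, at 138, 161 and 159 FPKM at day 5, 334 and 295 at day 14, and 137 and 61.4 at day 28. Of the granule genes that mark maturing neutrophils, Elane was at 0 in every library, and Ngp, Camp, Ltf and Mpo were at most 1.25, 0.560, 0.473 and 0.199 FPKM. Other genes of the list were well above 0: Lcn2, also a granule gene, was at 6.72 to 9.003 FPKM at day 5, 18.5 and 11.8 at day 14, and 7.90 and 6.69 at day 28, Retnlg at 8.24 to 28.0 FPKM over all libraries and Stfa2l1 at 3.90 to 28.5. All 3 had their highest mean at day 14, and none of them was called. Between days 5 and 14 Mmp8 alone of the 11 was called, lower at day 14 (edgeR adjusted p = 0.0184, and up to 0.0691 without day 5 replicate 1 or 3). Of all genes tested, 1.94% were called lower in this comparison and 7.51% at day 28 against day 5. No neutrophil gene was called between days 14 and 28, and Csf3r, Mmp8 and Mmp9 were lower at day 28 than at day 5, Csf3r not without day 28 replicate 1 (edgeR adjusted p = 0.0691). For the 11 genes the median log2 fold change was 0.83, -1.25 and -0.59. What part neutrophil transcripts had in the chemokine levels was not tested.

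Genes of other cells were also read out. The 10 fibroblast genes summed to 361, 292 and 254 FPKM at day 5, 404 and 209.8 at day 14, and 214 and 201 at day 28, led by Pdpn (123 to 284 FPKM). Day 14 replicate 1 had the highest collagen levels, with Col1a1, Col3a1 and Col1a2 at 82.4, 76.1 and 48.1 FPKM against 29.9, 26.0 and 18.4 in day 14 replicate 2. The median log2 fold change of the 10 was 1.63, -1.499 and -0.10 at day 14 against day 5, day 28 against day 14 and day 28 against day 5. Col1a2 and Postn rose and Pdpn fell between days 5 and 14, and Postn was higher and Pdpn lower at day 28 than at day 5. The 10 endothelial genes (9 tested) summed to 7.89 to 29.4 FPKM, led by Kdr at day 5, with Tek and Vwf higher and Pecam1 and Kdr lower at day 28 than at day 5. The 10 Schwann cell genes (3 tested) summed to 154 to 295 FPKM, nearly all from Pmp22, and Gfap was at most 0.0570 FPKM. Mbp was higher and Pmp22 lower at day 28 than at day 5. The 8 mast cell genes (1 tested), led by Kit except in day 28 replicate 1, summed to at most 1.33 FPKM with Fcer1a at 0, and the 1 tested was not called. For eosinophils 5 of 6 genes were found (2 tested), led by Ccr3 at days 5 and 14 and by Siglec5 at day 28, and summed to 1.79 to 5.71 FPKM, with Siglec5 higher at day 28 than at day 5. For T cells 6 of 7 were found (2 tested) and summed to 2.55 to 14.5 FPKM, mostly from Cd4, which was higher at days 14 and 28 than at day 5, with Cd3e at most 0.180 FPKM. The 5 B cell genes (1 tested) summed to 4.42 to 10.8 FPKM, mostly from Cd79b, and the 1 tested was not called. The 6 erythroid genes (3 tested) summed to 96.4, 122 and 88.1 FPKM at day 5, 145 and 16.8 at day 14, and 8.01 and 23.0 at day 28, led by the globin gene Beta-s. Beta-s and Alas2 were lower at day 28 than at day 5, as were Cxcl5, Ppbp and Pf4. Among all genes tested, 4.78% were called between days 5 and 14 and 15.2% between days 5 and 28. None of the genes tested here was called between days 14 and 28. Of these calls, only that of Kdr was made with any 1 library left out (edgeR adjusted p of at most 0.0470). Without day 28 replicate 1 those of Beta-s, Alas2, Mbp, Pmp22, Tek, Vwf and Siglec5, of Cd4, Postn and Pdpn at day 28, and of Col1a2 were lost, and without day 28 replicate 2 that of Pecam1. Postn and Cd4 at day 14 were lost without day 5 replicate 2 or 3, and Pdpn at day 14 without any library but day 14 replicate 1. The highest edgeR adjusted p was 0.265, for Beta-s. What part such cells had in the chemokine levels was not tested.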

How the data were processed

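RNASeq of 7 libraries was used, with 18027190 to 35247116 fragments each. According to the deposited records, the authors trimmed reads with cutadapt 1.8, aligned them to mm10 with TopHat2 2.0.13 and quantified genes with Cuffdiff 2.2.1. The deposited values hold 3 units: the authors' estimated count of raw fragments per gene, a signal of fragments scaled by Cuffdiff, and FPKM. The 1.01% of raw fragment values that were not whole were rounded, genes with low counts were filtered with edgeR's default, and 12858 genes were tested with edgeR 4.0.16 (TMM scaling, quasi-likelihood, R 4.3.3) with Benjamini-Hochberg adjustment. Alternatives were DESeq2 1.42.0, limma 3.58.1 on log2 FPKM with pseudocounts of 1 and 0.1, RLE and Cuffdiff scaling, no filter, 2 days alone, a replicate block and leaving out each library. The genes named were the 6 members, the 3 nearest profiles of each, and called, most abundant or defining genes of the lists. The members and lists were chosen with earlier results of these data known. Lists covered macrophage sort and further macrophage markers, 10 other cell types, receptors and binding partners, inducing cytokines, regulators, trimming proteases and other CXC chemokines. Python 3.11.15 and GENCODE M21 were used. Some items are not reported here.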

Additional observations from a re-analysis of the deposited data

How the results depend on the processing

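Cxcl5 and Pf4 were called lower at day 14 and at day 28 than at day 5 in every alternative run. With 5, 0 and 3 chemokine genes called between days 5 and 14, 14 and 28, and 5 and 28, leaving out 1 library gave 3 to 6, 0 to 1 and 2 to 3, and 52 to 1728, 0 to 629 and 452 to 2746 for all genes. A lone library at a day is there assumed to vary like the others. DESeq2 and no filter each called 1 chemokine gene, Cxcl3, between days 14 and 28. Against 614 genes between days 5 and 14, DESeq2 called 1309, no filter 1429, limma 252 and 277 with pseudocounts of 1 and 0.1, and the 2 days alone 315. Against 8 between days 14 and 28 they called 333, 390, 0, 0 and 0. Apart from different numbers of genes tested, the cause was not tested. The sign reversed for Cxcl5 at day 28 against day 14 without day 14 replicate 1 (0.22, range -0.54 to 0.22) and for Cxcl2 at day 28 against day 5 without day 5 replicate 1 (0.0052, range -0.22 to 0.0052). Neither was called.

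Replicate numbers may or may not mark pairs across days. With the replicate number as a block, 2, 0 and 2 chemokine genes (Cxcl5 and Pf4 in both counts of 2) and 6, 0 and 735 genes in all were called, with 2 residual degrees of freedom against 4. Of the calls of members, 4 of 8 were made. Those lost were Cxcl1, Cxcl3 and Ppbp between days 5 and 14 (edgeR adjusted p = 0.0809, 0.0610 and 0.0784) and Ppbp between days 5 and 28 (edgeR adjusted p = 0.0533). Of the 82 calls of list genes 26 were made, and among those lost was Jun between days 5 and 14 (edgeR adjusted p = 0.0698). Over the 7556 tested genes of at least 5 FPKM, same-number libraries correlated after removal of day means at 0.402 and 0.047 between days 5 and 14, -0.146 between days 14 and 28, and -0.042 and 0.044 between days 5 and 28. Over all 7613 genes of that level the values were 0.175 and 0.045, -0.054, and 0.084 and 0.025. Because of the first of these negative values, the block was also fitted with day 28 numbers crossed, chosen after seeing the data, which gave 5, 0 and 3 chemokine genes and 357, 63 and 1579 in all.

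Precision is limited by 2 libraries at days 14 and 28, and for Ppbp and Cxcl5 by as few as 43 and 78 fragments.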

Other observations

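Among 9 other CXC chemokines, 7 were tested, with a summed level of 208, 176 and 171 FPKM at day 5, 260.1 and 202 at day 14, and 212 and 229.5 at day 28. Cxcl16, a scavenger receptor and chemokine, was the most abundant (125 to 196 FPKM), and Cxcl17 and Il8 were at 0 in every library. Cxcl14 was at 6.08, 8.18 and 6.76 FPKM at day 5, 11.2 and 36.6 at day 14, and 59.2 and 51.8 at day 28. Its libraries at day 28 were above all others. It rose by 3.00 on the log2 scale from day 5 to day 28 (edgeR adjusted p = 0.00213, at most 0.0308 with 1 library left out). Cxcl12, Cxcl13 and Cxcl14 were higher at day 14 than at day 5 and Cxcl9 at day 28 than at day 5, but each of these 4 calls was lost in at least 5 of the 7 fits without 1 library, with edgeR adjusted p of up to 0.118, 0.127, 0.123 and 0.325. None was called between days 14 and 28. Among all genes tested, 4.78% were called between days 5 and 14 and 15.2% between days 5 and 28. The median log2 fold change of the 7 was 1.79, -0.31 and 1.02 at day 14 against day 5, day 28 against day 14 and day 28 against day 5.

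Among 10 proteases known to trim CXC chemokines, 8 were tested, with a summed level of 511 to 987 FPKM. Mmp14 was the most abundant at day 5 and in day 14 replicate 1, and Mmp12 in the other libraries. Mmp12, the macrophage elastase, was at 18.7, 42.8 and 26.2 FPKM at day 5, 36.5 and 251 at day 14, and 633 and 431 at day 28. It rose by 4.20 on the log2 scale from day 5 to day 28 (edgeR adjusted p = 0.00485, at most 0.0470 with 1 library left out). Mmp8, Mmp9, Mmp14 and Prtn3 were lower at day 28 than at day 5. The calls of Mmp8 and Mmp9 were made with any 1 library left out, and those of Mmp14 and Prtn3 were not, with edgeR adjusted p of up to 0.113 and 0.217 without day 28 replicate 1. Between days 5 and 14 Mmp2 was higher and Mmp8 lower, with edgeR adjusted p of up to 0.113 without day 5 replicate 2 and 0.0691 without day 5 replicate 3. None was called between days 14 and 28. Elane was at 0 and Ctsg at most 0.0649 FPKM. Among all genes tested, 4.78% were called between days 5 and 14 and 15.2% between days 5 and 28. The median log2 fold change of the 8 was -0.17, -0.66 and -0.35.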
